A study of Mus musculus with 12 samples.

Results

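The genes described here are 10 immune checkpoint ligands and receptors, taken by symbol from the 78298 gene rows of a count table of mouse lung. They are the ligands Cd274 (PD-L1), Pdcd1lg2 (PD-L2), Cd80, Cd86 and Lgals9 (galectin-9), and the receptors Pdcd1 (PD-1), Ctla4, Lag3, Havcr2 (TIM-3) and Tigit. All 10 were found, and all 10 passed the filter on low counts that left 22190 genes for testing.

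RNA was sequenced from 12 libraries, and combining 2 tissues with 2 treatments gave 4 groups of 3. The tissues were macroscopic LLC tumours and the normal lung next to them, and the treatments were HDM, which the series title spells out as house dust mite, and VEH. The labels do not spell out LLC or VEH. Strain, genotype, age, dose and the length of exposure are not given in the sources used here, and neither is whether the libraries of a group came from separate mice. P-values therefore measure only the spread between these libraries, which may be technical. Each group is named by its tissue and then its treatment (for example, tumour HDM).

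T cells are activated when the T cell receptor and the costimulatory receptor CD28 signal together, and checkpoint receptors such as PD-1 and CTLA-4 restrain that activation. PD-1 binds PD-L1 and PD-L2, which macrophages, dendritic cells, epithelium and tumour cells can carry and which interferon gamma induces. CTLA-4 competes with CD28 for CD80 and CD86 on antigen-presenting cells. LAG-3 and TIGIT are found on activated and long-stimulated T cells and on natural killer cells, while TIM-3 is also carried by macrophages and dendritic cells.

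Because interferon induces several of these genes, the 250 bases before the start of each gene were searched for the core of interferon regulatory factor sites, GAAANNGAA, and of gamma-activated sites, TTCNNNGAA, on both strands. The windows came from the RefSeq promoter table on build GRCm38.p6, which held 8 of the 10 genes (all but Lag3 and Cd86). Cd274, Ctla4 and Lgals9 each held 1 match to GAAANNGAA, a sequence found in 7.13% of 32851 windows of that length. None of the 8 held TTCNNNGAA, which was found in 7.02% of the windows. The windows with a match are printed 5′ to 3′ on the strand of the gene, with the match in capitals (its reverse complement in each). The window of Pdcd1lg2 is printed beside them because it is the chromosomal neighbour of Cd274 and held no match.
Cd274, chr19:29367188-29367437, plus strand: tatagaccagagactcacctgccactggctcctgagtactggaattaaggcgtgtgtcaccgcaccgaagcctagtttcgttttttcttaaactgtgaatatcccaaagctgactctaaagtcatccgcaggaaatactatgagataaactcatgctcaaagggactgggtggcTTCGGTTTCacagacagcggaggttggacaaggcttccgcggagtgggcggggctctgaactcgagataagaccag
Pdcd1lg2, chr19:29410669-29410918, plus strand: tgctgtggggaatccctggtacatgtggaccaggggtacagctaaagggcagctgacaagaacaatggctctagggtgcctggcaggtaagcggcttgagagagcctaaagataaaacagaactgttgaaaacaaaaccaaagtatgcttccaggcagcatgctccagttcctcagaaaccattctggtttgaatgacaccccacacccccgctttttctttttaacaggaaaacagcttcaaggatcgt
Ctla4, chr1:60908775-60909024, plus strand: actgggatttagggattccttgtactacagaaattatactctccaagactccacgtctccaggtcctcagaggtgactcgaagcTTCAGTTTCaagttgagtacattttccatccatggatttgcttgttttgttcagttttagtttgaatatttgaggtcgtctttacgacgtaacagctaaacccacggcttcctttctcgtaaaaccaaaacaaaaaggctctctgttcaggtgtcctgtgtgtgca
Lgals9, chr11:78984925-78985174, minus strand: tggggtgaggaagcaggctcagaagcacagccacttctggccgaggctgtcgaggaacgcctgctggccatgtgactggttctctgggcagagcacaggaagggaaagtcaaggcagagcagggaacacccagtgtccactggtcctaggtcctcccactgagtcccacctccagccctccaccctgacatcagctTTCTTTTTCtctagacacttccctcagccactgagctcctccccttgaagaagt
The match lay at -76 to -68 from the start site of the RefSeq table in Cd274, at -166 to -158 in Ctla4 and at -54 to -46 in Lgals9. That start site may differ from the gene start in the GENCODE coordinates given below, which are on another build. A match is a description of these letters and was not tested as a binding site.

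Total counts per library ranged from 20608682 to 32765364. Lung epithelial markers summed to between 53569 and 112706 CPM (CPM here means counts scaled by TMM to a common library total) in the 6 normal libraries and to between 39.5 and 23753 CPM in the 6 tumour libraries. Library names carry 6 prefixes, each shared by 1 normal and 1 tumour library, and the labels do not say what the prefix marks. For 2 of them the treatment labels conflict: 1 of these prefixes joins the replicates numbered 2 of normal VEH and tumour HDM, and the other joins the replicates numbered 3 of normal HDM and tumour VEH. Groups follow the labels throughout, and values without these 4 libraries are stated where they changed a call. Of the values between 2 and 100 counts in the table, 73.8% were even numbers, and all 12 counts of Pdcd1 were even. Over the counts above 0 of the 10 genes the share was 69.2%. It was 33.3% for Cd274, 45.5% for Tigit and 50% for Havcr2, and from 66.7% (Cd80) to 90.9% (Pdcd1lg2) for the rest, so the excess of even numbers was not seen in every gene. Where both mates of a read pair are counted, 1 fragment gives 2 counts, so low counts here may stand for fewer fragments than their size.

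Per kilobase of gene length, Lgals9 was the most abundant of the 10 genes in every group, at 29.2 ± 6.5 CPM per kb in normal VEH, 37.2 ± 13.2 in normal HDM, 45.7 ± 12.1 in tumour VEH and 23.4 ± 2.7 in tumour HDM (mean ± SD, n = 3). Cd274 was second in the first 3 of these groups, at 7.35 ± 6.00, 9.79 ± 5.06 and 7.32 ± 3.15 CPM per kb. In tumour HDM, Havcr2 (4.66 ± 3.05 CPM per kb) and Cd274 (4.10 ± 2.48) followed Lgals9, within each other's spread. Pdcd1 (0.132 ± 0.110), Pdcd1lg2 (0.141 ± 0.175) and Ctla4 (0.159 ± 0.260 CPM per kb) held the last 3 places in normal VEH and did not differ beyond their spread. In tumour VEH, Tigit, Havcr2, Cd86, Pdcd1, Lag3 and Cd80 lay close together, between 6.08 ± 2.03 and 2.74 ± 1.00 CPM per kb, each within the spread of its neighbours. Ctla4 (1.20 ± 0.41) and Pdcd1lg2 (0.749 ± 0.376) were last in that group.

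**Figure D1:**
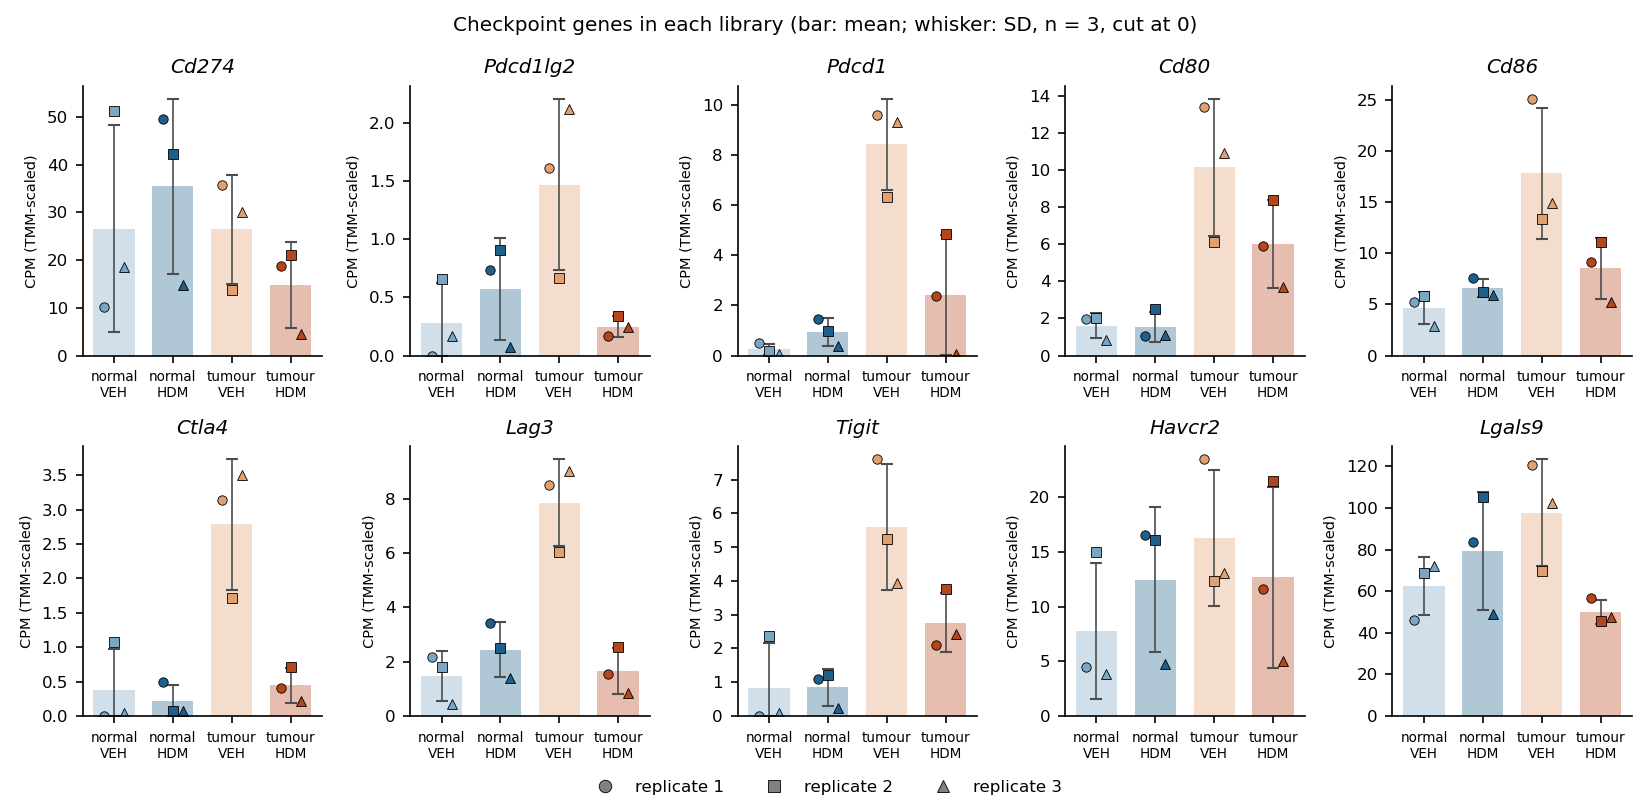
TMM-scaled CPM of each gene in the 12 libraries; points are libraries with the marker shape for the replicate number, bars are group means and whiskers the SD (n = 3, cut at 0), and every axis starts at 0. Pdcd1, Lag3, Ctla4, Tigit, Cd80 and Cd86 were highest in tumour VEH with no overlap with the other 3 groups except for Cd80, where tumour HDM replicate 2 (8.40) exceeded tumour VEH replicate 2 (6.14). For Tigit the margin was small, with tumour VEH replicate 3 at 3.92 and tumour HDM replicate 2 at 3.76.

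Under VEH, 4 of the 10 genes rose in tumours over normal tissue in edgeR's quasi-likelihood test with Benjamini-Hochberg adjustment: the receptors Pdcd1 and Lag3 and the costimulatory ligands Cd80 and Cd86. None fell. Over all 22190 genes, 18.2% rose and 20.6% fell in this comparison, and the median log2 fold change was 2.38 over the 10 genes against -0.11 over all genes. In 7 of the 10 genes every tumour VEH library exceeded every normal VEH library and in 0 every library was lower, against 23.9% and 28.5% of all genes. Under HDM, 1 of the 10 genes rose in tumours (Cd80) and none fell, where 23.0% of all genes rose and 28.9% fell. The median was 0.20 over the 10 genes and -0.08 over all. Tumour and normal libraries separated upward in 2 of the 10 genes, Tigit and Cd80, and downward in 0, against 29.6% and 33.5% of all genes. Scaling by library size alone moved the median of all genes by more than 0.1 in both tumour comparisons, to 0.03 under VEH and 0.10 under HDM, and the same 4 genes and 1 gene passed, joined by Lgals9 under VEH.

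No gene of the 10 changed with HDM in normal tissue, where edgeR called 0% of all genes. At an unadjusted p under 0.05 there were 0 of the 10 and 1230 of all genes, and DESeq2 also called 0 of the 10. Over all 22190 genes, DESeq2 called 10 higher and 28 lower. Cd86 was the 1 gene of the 10 whose normal HDM libraries all exceeded the normal VEH libraries, and in 0 were all lower, against 4.47% and 5.85% of all genes. In tumours, all 10 log2 fold changes of HDM over VEH were below 0 (median -1.04 over the 10, -0.03 over all genes), and edgeR called 0 of them. It called 0.00901% of all genes higher and 0.0856% lower. At an unadjusted p under 0.05 there were 4 of the 10 (Pdcd1lg2, Lag3, Cd86 and Lgals9) and 3698 of all genes, and DESeq2 called 2, Lag3 and Lgals9, both lower. Over all 22190 genes, DESeq2 called 253 higher and 1055 lower, more than edgeR did. In 7 of the 10 genes every tumour HDM library was below every tumour VEH library, and in 0 every library was above, against 10.7% and 11.3% of all genes. Other measures also differed between the tumour groups: natural killer cell markers summed to 6.58 to 9.69 CPM in tumour VEH and 1.85 to 2.71 in tumour HDM, and endothelial markers to 216 to 325 and 75.0 to 200.3 CPM. The median log2 fold change was -1.57 for lung epithelial, -0.99 for B cell and -1.32 for dendritic cell markers, none of which edgeR called, and mitochondrial genes took 0.896% to 1.79% of counts in tumour VEH and 0.342% to 0.627% in tumour HDM. Their part in the differences of the 10 genes was not tested. This comparison shares the tumour VEH libraries with the tumour comparison under VEH, and the 2 are not independent.

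The interaction, the tumour difference under HDM minus that under VEH, was also below 0 for all 10 genes (median -1.44 over the 10, -0.02 over all genes), and edgeR called 0 of them and 0% of all genes. There were 5 of the 10 and 2084 of all genes at an unadjusted p under 0.05, and DESeq2 called Lag3 alone among the 10. Over all 22190 genes, DESeq2 called 37 higher and 182 lower. The difference of the tumour effect between treatments therefore did not pass the edgeR test for any of the 10.

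**Figure D2:**
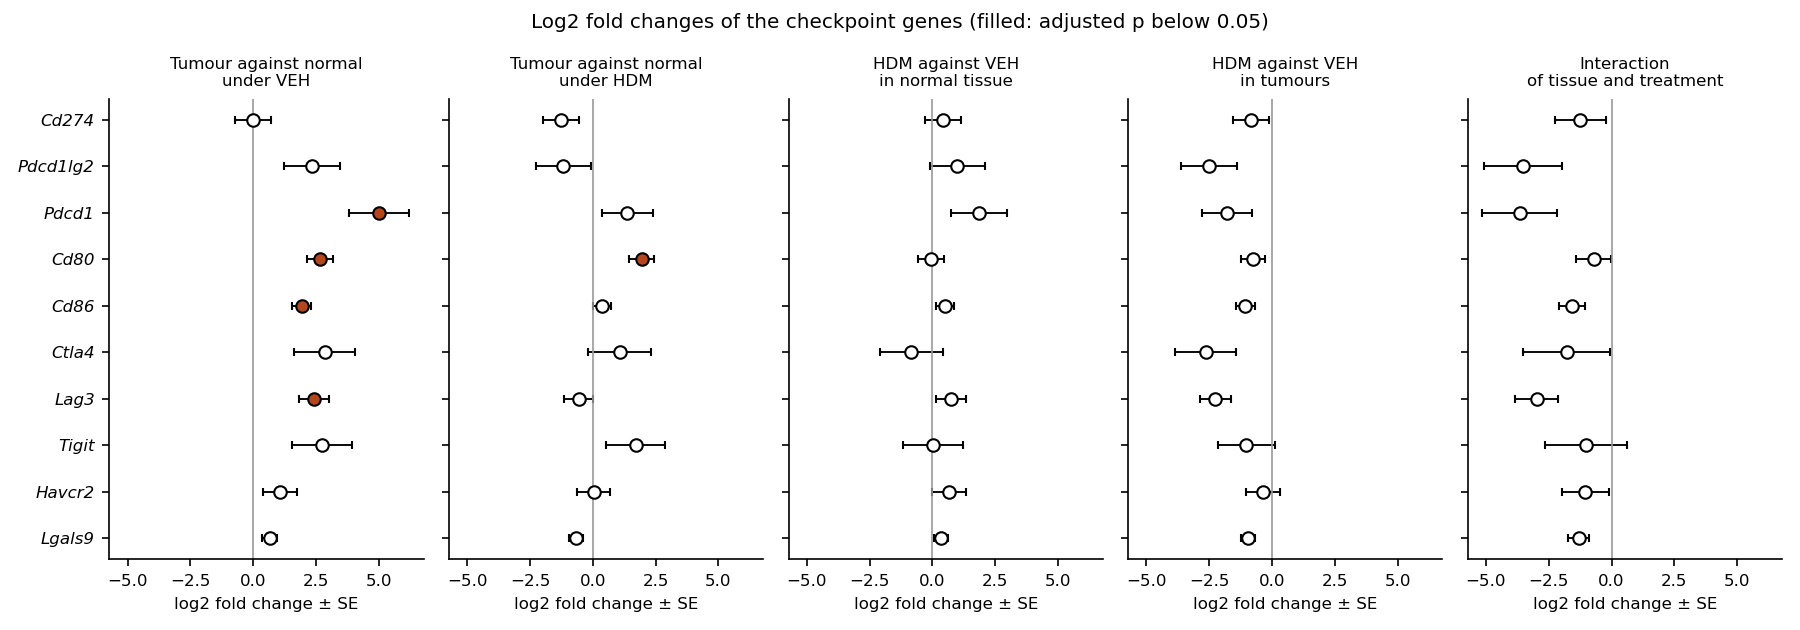
Log2 fold changes (horizontal axis) of the 10 genes in the 5 comparisons; whiskers are standard errors, and filled points have an adjusted p below 0.05 in edgeR. Filled points are Pdcd1, Cd80, Cd86 and Lag3 for tumour against normal under VEH and Cd80 under HDM; all 10 points lie left of 0 for HDM against VEH in tumours and for the interaction.

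Pdcd1 encodes PD-1 (ENSMUSG00000026285; chr1:93966027-93980312, minus strand, on GRCm39 with the GENCODE M39 gene models). It was at 0.493, 0.189 and 0.084 CPM in the 3 normal VEH libraries, 12, 6 and 2 counts, and at 9.60, 6.32 and 9.32 CPM in the tumour VEH libraries. The groups were far apart, and the fitted difference was 32.6-fold (log2 5.02 ± 1.19 SE, adjusted p = 0.00869). With so few counts in normal tissue the size of that fold is imprecise. In normal HDM, Pdcd1 was at 1.47, 0.982 and 0.368 CPM. In tumour HDM it was at 2.38, 4.85 and 0.061 CPM, so that replicate 3, with 2 counts, lay below every normal HDM library and the other 2 lay above them. Tumour and normal tissue under HDM differed by a log2 of 1.37 ± 1.02 (adjusted p = 0.282), and by 2.07 without tumour HDM replicate 3 (adjusted p = 0.0304), which made Pdcd1 pass. All 3 tumour HDM libraries were below the tumour VEH libraries (log2 -1.79 ± 1.00, adjusted p = 0.392). Without the 4 libraries of conflicting prefix the tumour difference under VEH was 4.86 and missed the threshold (adjusted p = 0.0648).

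Cd274 encodes PD-L1 (ENSMUSG00000016496; chr19:29344529-29365495, plus strand). Its level was at 10.1, 51.2 and 18.5 CPM in normal VEH and at 35.7, 13.7 and 30.1 CPM in tumour VEH. The groups overlapped almost fully, and the spread within normal VEH was 81.6% of its mean. The log2 difference was -0.01 ± 0.71 (adjusted p = 0.993), and its sign was positive under scaling by library size alone (0.10). In normal HDM it was at 49.5, 42.1 and 14.8 CPM, and in tumour HDM at 18.9, 21.1 and 4.58 CPM. Tumour HDM replicate 3 was the lowest of all 12 libraries. The log2 difference of tumour HDM from normal HDM was -1.26 ± 0.72 (adjusted p = 0.167) and from tumour VEH -0.84 ± 0.72 (adjusted p = 0.588). Exons of Cd274 overlap those of Plgrkt (219 bases) and Gm36043 (581 bases) on the opposite strand. Whether counting used the strand is not stated in the sources used here, so its values are uncertain to that extent. Without normal VEH replicate 2 the log2 difference under VEH was 0.89.

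Pdcd1lg2, which encodes PD-L2, lies 22823 bases beyond Cd274 (ENSMUSG00000016498; chr19:29388319-29448882, plus strand). It was at 0, 0.661 and 0.168 CPM in normal VEH and at 1.61, 0.669 and 2.12 CPM in tumour VEH. The groups just missed each other: tumour VEH replicate 2 was barely above normal VEH replicate 2. The log2 difference was 2.35 ± 1.11 (adjusted p = 0.111), and without normal VEH replicate 2 it was 4.06 and passed (adjusted p = 0.0349). In normal HDM it was at 0.737, 0.906 and 0.074 CPM, and in tumour HDM at 0.164, 0.342 and 0.243 CPM, the last below every tumour VEH library (log2 -2.53 ± 1.12, adjusted p = 0.289). Set against its neighbour in the same library, Pdcd1lg2 was 4.52%, 4.88% and 7.06% of the CPM of Cd274 in tumour VEH. In the 6 normal libraries that share ranged from 0 to 2.15%. In tumour HDM it was 0.872%, 1.62% and 5.30%, so replicate 3 lay within the range of tumour VEH and the other 2 within that of normal tissue. The share of Pdcd1lg2 was thus higher in every tumour VEH library than in any normal library, and no test was made of it.

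Ctla4 encodes the inhibitory receptor that shares its ligands with CD28 (ENSMUSG00000026011; chr1:60926159-60954991, plus strand). Normal VEH libraries were at 0, 1.07 and 0.042 CPM and tumour VEH libraries at 3.14, 1.71 and 3.51 CPM. No library overlapped, but normal VEH replicate 2, with 34 counts, stood far above the other 2, with 0 and 1. The log2 difference was 2.85 ± 1.22 (adjusted p = 0.0856), and without that library it was 6.77 and passed (adjusted p = 0.00359). Normal HDM libraries were at 0.492, 0.076 and 0.074 CPM. Tumour HDM libraries were at 0.411, 0.717 and 0.212 CPM, all below tumour VEH (log2 -2.63 ± 1.21, adjusted p = 0.306) and overlapping with normal HDM (log2 1.06 ± 1.25, adjusted p = 0.498).

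Cd80, a ligand of CD28 and CTLA-4 (ENSMUSG00000075122; chr16:38275923-38316697, plus strand), was the gene of the 10 that rose in tumours under both treatments. Normal libraries were at 1.97, 2.01 and 0.842 CPM under VEH and at 1.06, 2.49 and 1.10 CPM under HDM. Tumour libraries were at 13.4, 6.14 and 10.9 CPM under VEH and at 5.91, 8.40 and 3.67 CPM under HDM, above every normal library. The difference was 6.28-fold under VEH (log2 2.65 ± 0.52, adjusted p = 0.0034) and 3.85-fold under HDM (log2 1.94 ± 0.51, adjusted p = 0.00897). The tumour groups overlapped (log2 -0.76 ± 0.49, adjusted p = 0.455). Without the 4 libraries of conflicting prefix the difference under HDM was 1.55 and missed the threshold (adjusted p = 0.108). Exons of Cd80 overlap 276 bases of Timmdc1 on the opposite strand, which held 5239 counts over all libraries against 1482 for Cd80, so part of its counts may belong to Timmdc1.

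Cd86, the second ligand of CD28 and CTLA-4 (ENSMUSG00000022901; chr16:36424044-36486443, minus strand), was at 5.26, 5.85 and 2.86 CPM in normal VEH and at 25.1, 13.4 and 14.9 CPM in tumour VEH. The tumour libraries were all higher, by 3.82-fold (log2 1.93 ± 0.38, adjusted p = 0.00337). In normal HDM it was at 7.58, 6.27 and 5.89 CPM, each above the normal VEH libraries by a small margin (log2 0.50 ± 0.37, adjusted p = 0.953). In tumour HDM it was at 9.20, 11.1 and 5.28 CPM, below every tumour VEH library (log2 -1.06 ± 0.37, adjusted p = 0.218) and overlapping with normal HDM (log2 0.37 ± 0.37, adjusted p = 0.415). Within a library, Cd86 exceeded Cd80 in all 12, by 2.52 to 7.12 times its CPM in the 6 normal libraries and by 1.32 to 2.18 times in the 6 tumour libraries. The gap between the 2 ligands was thus narrower in every tumour library than in any normal one, whichever the treatment.

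Lag3 encodes an inhibitory receptor that binds MHC class II (ENSMUSG00000030124; chr6:124881320-124888765, minus strand). It was at 2.18, 1.79 and 0.421 CPM in normal VEH, at 3.44, 2.49 and 1.40 CPM in normal HDM and at 8.497, 6.02 and 9.04 CPM in tumour VEH. Tumour VEH stood above both normal groups, 5.34-fold above normal VEH (log2 2.42 ± 0.61, adjusted p = 0.0113). Tumour HDM libraries were at 1.56, 2.53 and 0.849 CPM, within the range of normal tissue (log2 -0.57 ± 0.59 against normal HDM, adjusted p = 0.439). They were all below tumour VEH by a log2 of -2.25 ± 0.61, which missed the threshold in edgeR (adjusted p = 0.165) and passed it in the DESeq2 Wald test (adjusted p = 0.00719). The interaction was -2.99 ± 0.84 (adjusted p = 0.457 in edgeR, 0.0411 in DESeq2), the smallest adjusted p of the 10 genes in both tools. Without the 4 libraries of conflicting prefix the tumour difference under VEH was 2.58 and missed the threshold (adjusted p = 0.0563).

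Tigit encodes a receptor for the nectin-like ligand PVR (ENSMUSG00000071552; chr16:43469100-43484509, minus strand). It was at 0, 2.36 and 0.084 CPM in normal VEH, where replicate 2 held 75 of the 77 counts of the group. Tumour VEH libraries were at 7.60, 5.24 and 3.92 CPM, all higher (log2 2.74 ± 1.21, adjusted p = 0.0932), and without normal VEH replicate 2 the difference was 6.91 and passed (adjusted p = 0.00111). Normal HDM libraries were at 1.11, 1.21 and 0.221 CPM. Tumour HDM libraries were at 2.09, 3.76 and 2.43 CPM, above every normal HDM library (log2 1.71 ± 1.18, adjusted p = 0.246) and below every tumour VEH library (log2 -1.02 ± 1.13, adjusted p = 0.685). Tumour HDM replicate 3, which was lowest in its group for 7 of the 10 genes, was not the lowest for Tigit.

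Havcr2 encodes TIM-3 (ENSMUSG00000020399; chr11:46345673-46374149, plus strand), and one of its described ligands is galectin-9. Its levels overlapped in every pair of groups compared. They were 4.44, 15.0 and 3.87 CPM in normal VEH, 16.5, 16.0 and 4.79 CPM in normal HDM, 23.5, 12.3 and 13.1 CPM in tumour VEH and 11.6, 21.5 and 5.004 CPM in tumour HDM. The normal libraries fell apart into 3 at 15.0 to 16.5 CPM (VEH replicate 2 and HDM replicates 1 and 2) and 3 below 5 CPM. The tumour difference was 1.07 ± 0.68 on the log2 scale under VEH (adjusted p = 0.225) and 0.03 ± 0.67 under HDM (adjusted p = 0.976), the latter turning negative with DESeq2 size factors (-0.03). Without normal VEH replicate 2 the difference under VEH was 1.97 and passed (adjusted p = 0.0442).

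Lgals9, galectin-9, a secreted lectin (ENSMUSG00000001123; chr11:78853800-78875798, minus strand), had the smallest relative spread of any of the 10 genes in any group, an SD of 11.5% of the mean in tumour HDM. It was at 46.3, 68.9 and 71.9 CPM in normal VEH, at 83.8, 105.2 and 49.2 CPM in normal HDM, at 120.8, 69.9 and 102.5 CPM in tumour VEH and at 56.7, 45.8 and 47.8 CPM in tumour HDM. Tumour HDM lay wholly below tumour VEH (log2 -0.96 ± 0.29, adjusted p = 0.192 in edgeR and 0.0416 in DESeq2). Tumour VEH exceeded normal VEH by a log2 of 0.65 ± 0.29 and tumour HDM was below normal HDM by -0.66 ± 0.29, and both missed the threshold (adjusted p = 0.0932 and 0.0731). The first passed without tumour VEH replicate 2 (0.84, adjusted p = 0.0435) and the second without normal HDM replicate 3 (-0.80, adjusted p = 0.0274). The interaction was -1.31 ± 0.41 (adjusted p = 0.478).

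Removing normal VEH replicate 2, a library of conflicting prefix that was the highest of its group for 7 of the 10 genes, raised the number of genes called higher in tumours under VEH from 4 to 8. Without the 4 libraries of conflicting prefix it was 5: Pdcd1 and Lag3 no longer passed, and Ctla4 (6.66, adjusted p = 0.0191), Havcr2 (2.21, adjusted p = 0.024) and Tigit (7.21, adjusted p = 0.00442) did. With the library prefix as a block the number was 7, with Ctla4 (5.93, adjusted p = 0.0243), Havcr2 (2.21, adjusted p = 0.0152) and Tigit (6.15, adjusted p = 0.0123) added. Under HDM the number was 0 without the 4 libraries of conflicting prefix. Over all genes, those called higher under VEH were 4045 of 22190 with all libraries and 4248 of 23126 without normal VEH replicate 2. They were 3534 of 22414 without the 4 libraries and 3061 of 22190 with the prefix block. Under HDM they were 4476 of 22414 without the 4 libraries.

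A bulk level cannot tell fewer cells of a type from less RNA per cell, so the receptors were also set against markers of T cells measured in the same libraries. The 14 T cell markers summed to between 28.3 and 42.7 CPM in normal VEH, 44.4 and 71.0 in normal HDM, 76.1 and 119 in tumour VEH and 16.9 and 38.6 in tumour HDM, where at most 1 of the 14 was at 0 in a library. Under VEH, 5 of the 14 rose in tumours and none fell (median log2 1.66), among them Cd5 (2.69), Cd8a (2.68) and Cd6 (2.50), which encode T cell surface proteins. Over all genes, 18.2% rose and 20.6% fell under VEH. Under HDM, none rose and 3 fell (median -1.33): Trbc1 (-2.36), Cd4 (-1.98) and Trbc2 (-1.60), of which Trbc1 and Trbc2 are near-identical copies. Over all genes, 23.0% rose and 28.9% fell under HDM, so 3 of 14 is not more than that share. Between the tumour groups edgeR called none of the 14 (median -2.30). The summed T cell markers of every tumour HDM library were thus below those of every tumour VEH library, and their part in the differences of the receptors was not tested.

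Relative to the mean log2 CPM of these markers, Pdcd1 was at 0.474, 0.496 and 0.497 in tumour VEH, against -3.20 to -1.90 in normal VEH and -2.45 to -1.40 in normal HDM. Tumour VEH libraries were therefore nearly equal and above every normal library on this scale. In tumour HDM the values ran from -1.18 to 1.45, spanning those of tumour VEH. Ctla4 was at -1.34 to -0.895 in tumour VEH and -1.99 to -0.104 in tumour HDM, with normal VEH from -4.81 to -0.960 and normal HDM from -4.25 to -2.85. Lag3 differed less between tissues on this scale, at 0.299 to 0.453 in tumour VEH, -0.242 to 1.58 in tumour HDM, -1.57 to 0.0872 in normal VEH and -0.723 to -0.169 in normal HDM. Tigit was at -0.736 to 0.230 in tumour VEH and 0.165 to 3.01 in tumour HDM, with normal VEH from -4.81 to 0.128 and normal HDM from -3.04 to -1.17. Havcr2 was at 0.985 to 1.76 in tumour VEH and 2.59 to 4.04 in tumour HDM, with normal libraries from 0.998 to 2.76. On the CPM scale tumour HDM was below tumour VEH for all 5 receptors by mean; relative to T cell markers the ranges overlapped for Pdcd1, Ctla4, Lag3 and Tigit and lay higher in tumour HDM for Havcr2, which macrophages also carry and which is set against their markers next. These values describe the libraries and were not tested. The -4.81 of Ctla4 and of Tigit is normal VEH replicate 1, where both had 0 counts. It is set by the prior count and the marker mean, and values from 1 or 2 counts are close to that floor. In tumour HDM replicate 3 the marker mean was itself low, at -1.69 log2 CPM, against 0.953 and 0.852 in replicates 1 and 2. That library gave the highest tumour HDM value of Ctla4, Lag3, Tigit and Havcr2, and the lowest of Pdcd1, with 2 counts. In replicates 1 and 2, Tigit was at 0.165 and 1.09 and Havcr2 at 2.59 and 3.58.

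**Figure D3:**
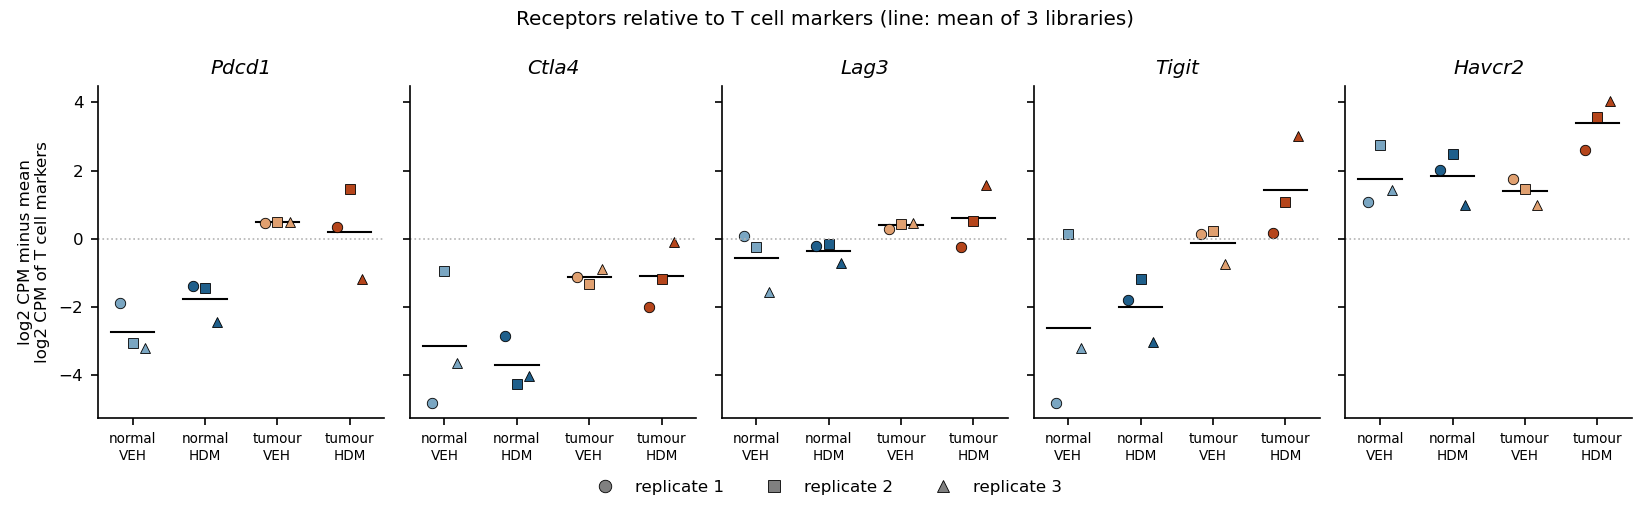
Log2 CPM of the 5 receptors minus the mean log2 CPM of 14 T cell markers in the same library (vertical axis); points are libraries, lines are means of 3, and 0 is the level of the markers. Pdcd1 is between 0.474 and 0.497 in the 3 tumour VEH libraries and at -1.40 or lower in all 6 normal libraries.

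The ligands and Havcr2 were set against 12 macrophage and monocyte markers, which summed to between 2833 and 9555 CPM in normal VEH, 4690 and 12860 in normal HDM, 2796 and 4905 in tumour VEH and 2292 and 4526 in tumour HDM, with none at 0. Of the 12, 7 rose and none fell in tumours under VEH, led by Fcgr1 (3.29), C1qb (2.83) and C1qc (2.81). Under HDM, 6 rose, led by the same 3 (2.53, 2.28 and 2.17), and Lyz2 fell (-2.04). The shares of all genes that rose and fell were 18.2% and 20.6% under VEH and 23.0% and 28.9% under HDM. C1qb and C1qc encode complement subunits made by macrophages. Lyz2 had the highest average log2 CPM of the 12 (12.3) and weighs most in the sums. The mean log2 CPM of the 12 ran from 4.52 to 6.34 in normal VEH and 4.975 to 6.51 in normal HDM. It ran from 6.605 to 7.36 in tumour VEH and 6.32 to 6.84 in tumour HDM, so it did not follow the sums. On the CPM scale, Cd274 differed between tumour and normal tissue by a log2 of -0.01 under VEH and -1.26 under HDM. Relative to the mean log2 CPM of the 12, Cd274 was at -1.73 to -0.307 in the normal VEH libraries and -1.08 to -0.596 in normal HDM, and lower in tumours, at -2.82 to -1.95 in VEH and -4.11 to -2.36 in HDM. Cd80 lay higher in tumours on this scale, from -5.27 to -4.05 in normal VEH and -6.32 to -4.63 in normal HDM to -3.97 to -3.40 in tumour VEH and -4.42 to -3.76 in tumour HDM. Cd86 was at -2.95 to -2.71 in tumour VEH, within the -3.77 to -2.66 of normal VEH, so these 2 groups overlapped on this scale and not on the CPM scale. Havcr2 was at -3.14 to -2.80 in tumour VEH and -3.98 to -2.41 in tumour HDM, overlapping ranges with a lower mean in HDM (-3.15 against -2.97), and at -2.91 to -1.98 in the normal libraries. Its order between the tumour groups thus differed between the 2 marker scales. Pdcd1lg2 was at -7.03 to -5.73 in tumour VEH, -8.66 to -7.98 in tumour HDM and -8.80 to -6.02 in the normal libraries. The -8.80 is normal VEH replicate 1, with 0 counts, and is set by the prior count and the marker mean. Lgals9 was at -0.477 to -0.183 in tumour VEH and -1.32 to -0.743 in tumour HDM, with normal libraries from -0.229 to 1.65. The part of macrophage content in the changes of Cd80 and Cd86 was not tested.

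After the mean of the 6 libraries of each tissue was removed, all 45 pairs had a positive Pearson r over the 12 libraries, from 0.33 (Pdcd1 and Tigit) to 0.924 (Lag3 and Cd86), with a median of 0.685. Over all pairs of the 11011 protein-coding genes with an average log2 CPM of at least 3, 50% were positive. Pdcd1lg2, Ctla4, Tigit, Pdcd1, Lag3 and Cd80 lie below that limit, so this share is not one for genes of their level. The tissue-centred values still hold the difference between HDM and VEH tumours, which was below 0 for all 10 genes. With the mean of each group of 3 removed instead, a choice made after seeing the data, all 45 pairs were again positive, from 0.0841 to 0.907 with a median of 0.617. With the tissue mean removed, Cd274 and Havcr2 had an r of 0.905, and Pdcd1lg2 and Lgals9 one of 0.886. The points share library, depth and cell content, so these values are a description. Tumour VEH replicate 1 was highest in its group for 7 of the 10 genes and replicate 2 lowest for 9, tumour HDM replicate 2 was highest for 9, and normal HDM replicate 3 was lowest for 9.

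**Figure D4:**
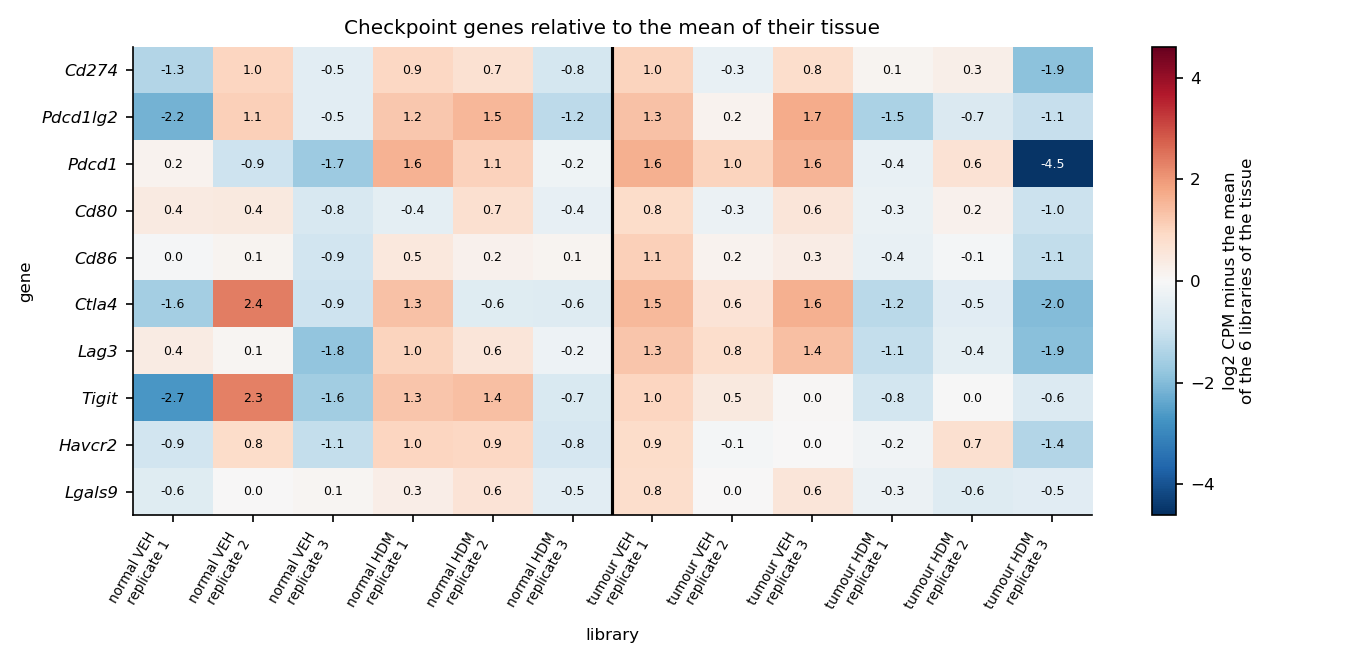
Log2 CPM of each gene (rows) in each library (columns) minus the mean of the 6 libraries of the same tissue; red is above and blue below that mean, and the black line parts normal from tumour libraries. Tumour HDM replicate 3 is below the tumour mean for all 10 genes, by 4.52 for Pdcd1, and tumour VEH replicates 1 and 3 are above it for all 10.

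Of the same 11011 genes, the most like Cd274 with the tissue mean removed were Ly6c2 (r = 0.983), a monocyte surface gene with the near-identical copy Ly6c1, Slc15a3 (0.957) and Zbtb7b (0.946). Among those most like Havcr2 were Cybb (0.966), the phagocyte oxidase subunit, and Pfkfb4 (0.965). For Cd86 they were Nuak2 (0.942), the dendritic cell surface gene Cd83 (0.933) and Tmem229b (0.932). For Lgals9 they were Ctsc (0.955), Dbnl (0.932) and Dtx3l (0.916). These are the largest of 11011 values over 12 libraries, so their size partly reflects that selection. Pdcd1lg2, at an average log2 CPM of -0.494, also had a highest r of 0.927.

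Among 30 other inhibitory checkpoint genes, 6 rose and 5 fell in tumours under VEH (median log2 -0.46), close to the 18.2% and 20.6% of all genes. Of those with an average log2 CPM of at least 0, the limit for naming genes in this and the next lists, Cd276, which encodes the ligand B7-H3, rose by 2.64 ± 0.49 (adjusted p = 0.00274), Klrc1, an inhibitory receptor of natural killer cells with close paralogs, by 2.38 and the collagen receptor Lair1 by 2.12. Cd200 fell by 2.66, and Nectin2, a ligand of the TIGIT family, and Ceacam1, a described ligand of TIM-3, each fell by 1.51. Under HDM 2 rose, Cd276 (2.99 ± 0.50, adjusted p = 0.000881) and Pvr, the main ligand of TIGIT (1.06), and 10 fell (median -0.82), where 23.0% of all genes rose and 28.9% fell. The largest falls were in Igsf11 (-4.70), Ido1 (-3.92) and Cd200 (-3.56). Cd276 thus rose in tumours under both treatments. Cd276 shares 506 exon bases with Gm10657 and Nectin2 shares 135 with Lncob1, both on the opposite strand. None of the 30 passed edgeR's test between HDM and VEH in either tissue (median -0.39 in tumours, 0.17 in normal tissue).

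Of 17 tested costimulatory receptors and ligands, 5 rose and 1 fell in tumours under VEH (median 0.40), against 18.2% and 20.6% of all genes. Above the expression limit, Tnfrsf9 (4-1BB) rose by 2.34, Icos by 2.15 and Tnfrsf4 (OX40) by 1.65, while Icosl, the ligand of ICOS, fell by 1.23. Under HDM none rose and 6 fell (median -1.03), against 23.0% and 28.9% of all genes, and above the limit the largest falls were in Cd226 (-4.06), the activating receptor that competes with TIGIT, Tnfrsf25 (-3.27) and the adhesion receptor Cd2 (-2.71). Between the tumour groups none was called (median -1.28). Tnfrsf25 shares 512 exon bases with Espn on the opposite strand and its values are uncertain.

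Of 17 adaptors that carry the signals of these receptors, 1 rose under VEH, Bag6 (0.50), which binds TIM-3, and none fell (median -0.08), fewer than the 18.2% and 20.6% of all genes. Under HDM 3 rose, Pik3r1 (0.75), Cblb (0.51) and Bag6 (0.42), and 5 fell, led by the T cell kinases Prkcq (-3.40) and Zap70 (-3.28) and the transcription factor Nr4a1 (-1.84), with a median of -0.40. These counts lie near the 23.0% and 28.9% of all genes. Between the tumour groups none was called (median -0.52).

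Of 13 genes of the interferon gamma pathway, which induces Cd274, 6 rose and none fell in tumours under VEH (median 1.34), against 18.2% and 20.6% of all genes, led by the chemokines Cxcl9 (6.43 ± 1.16, adjusted p = 0.0025) and Cxcl10 (4.02 ± 0.87, adjusted p = 0.00589) and by the feedback inhibitor Socs1 (1.98). Under HDM 3 rose, Cxcl9 (3.43), Cxcl10 (2.80) and the kinase Jak1 (0.60), and 2 fell, Ciita (-1.81) and the receptor chain Ifngr1 (-0.77), with a median of -0.36, where 23.0% and 28.9% of all genes rose and fell. None was called between HDM and VEH in tumours (median -1.50) or in normal tissue (median -0.01). Cd274 was thus not called in tumours under VEH, a comparison in which 6 of these 13 genes rose. Exons of Ciita overlap 633 bases of Dexi, those of Jak1 1950 bases of Raver2 and those of Cxcl10 133 bases of Art3, all on the opposite strand.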

How the data were processed

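Whole-gene counts were used as deposited. Per the submitters' processing notes, the tools were Trim Galore, STAR and featureCounts of Subread and the build was mm39; versions are not given in the sources used here. The labels' protocols describe a stranded dUTP library, and the strand setting of the counting is not given in the sources used here. Values in the deposited table are unnormalized counts, whole numbers listed by Ensembl identifier beside a gene length, per the file headers. Of 78298 identifiers, 78168 were named from GENCODE M39 (GRCm39), and the other 130 carried 0.143% of counts.

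Counts were tested in R 4.3.3 with edgeR 4.0.16: filterByExpr (minimum count 10) left 22190 genes, libraries were scaled by TMM, and 1 model with a term for each of the 4 groups was fitted to the 12 libraries (glmQLFit, robust). P-values are two-sided with Benjamini-Hochberg adjustment over all 22190 genes of a comparison, and a gene was called at an adjusted p below 0.05. Standard errors are the size of the log2 fold change over the root of its F value. Log2 CPM used a prior count of 2, and levels per kb used the deposited length. The procedure was tested on simulated data in which every gene had the same spread beyond counting noise. The simulation therefore does not show how the procedure behaves at the spread of these libraries. Replicates differed by far more than counting noise, so none was a library deposited more than once.

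The 10 genes and the other lists were chosen with earlier results of these data known. From each other list at most 3 called genes per direction, those with the largest log2 fold change and an average log2 CPM of at least 0, were named. For likeness, 3 genes with an average log2 CPM of at least 3 were named for each of 4 checkpoint genes, except that 1 is not reported here. The marker lists were T cells, regulatory T cells, natural killer cells, B cells, macrophages and monocytes, dendritic cells, all leukocytes, lung epithelium and endothelium. Alternatives were the Wald test (DESeq2 1.42.0), size factors in place of TMM, library size alone, fits without a filter or with at least 10 counts per library, fits limited to the 2 groups compared, a replicate or prefix block, and fits without 1 library or without the 4 of conflicting prefix.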

Additional observations from a re-analysis of the deposited data

How the results depend on the processing

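The number of checkpoint genes called higher in tumours under VEH was 4, 3 with the stricter filter (10 counts per library), 5 with library size scaling and 5 without the 4 libraries of conflicting prefix, 6 with the DESeq2 Wald test (Ctla4 and Tigit added), 7 with the library prefix block and 4 to 8 when each library was left out in turn, the highest without normal VEH replicate 2. Under HDM 1 was called higher, 0 without the 4 libraries of conflicting prefix and 1 to 2 when each library was left out; 0 were called lower, 1 (Lgals9) with the stricter filter, 1 with the DESeq2 Wald test and 0 to 1 when each library was left out. The Wald test called 2 lower in HDM against VEH tumours and 1 lower in the interaction. Of all 22190 genes it called 1055 and 182 lower in these 2 comparisons. In tumours under HDM it called 7231 of 22190 lower, and the stricter filter 4157 of 15292. These differences in the count of checkpoint genes follow from the calls named in the report, and their cause was not tested. Over all genes, those called higher under VEH were 4045 of 22190 in the main fit and 3336 of 15292 with the stricter filter. They were 4797 of 22190 with library size scaling and 4539 of 22190 with the Wald test. The prefix block gave 3061 of 22190. The fits without the 4 libraries and without normal VEH replicate 2 gave 3534 of 22414 and 4248 of 23126. Under HDM, the main fit called 5110 of 22190 higher.

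The sign of these values turned, and none of them was called in the report. Cd274 in tumours under VEH was at 0.102 with library size scaling, 0.0167 with no filter, 0.0113 with only the compared groups, 0.219 with the replicate block, 0.937 with the prefix block, 0.891 without the 4 libraries and -0.397 to 0.891 when each library was left out. Havcr2 under HDM was at -0.0348 with DESeq2 size factors, -0.119 with the stricter filter, -0.0347 with the Wald test, -0.0032 with only the compared groups, -0.0208 with the replicate block, -0.917 with the prefix block, -0.861 without the 4 libraries and -0.469 to 0.546 when each library was left out. In HDM against VEH tumours, Havcr2 ranged from -0.966 to 0.0499 when each library was left out. In HDM against VEH normal tissue, Ctla4 was at 3.49 without the 4 libraries and -2.29 to 3.07 when each library was left out, Tigit at -0.00677 with library size scaling and -0.551 to 4.19, Cd80 at 0.0367 with the prefix block, 0.328 without the 4 libraries and -0.57 to 0.158, and Lgals9 at -0.0599 with the prefix block.

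Of the values of single genes under the alternatives, 122 of 146 (VEH) and 131 of 145 (HDM) in the tumour comparisons, 131 of 145 and 142 of 146 for HDM against VEH in normal tissue and in tumours, and 195 of 196 for the interaction kept sign and call. Replicate numbers were not used to pair the samples. Deviations from the group mean correlated at -0.355 to 0.303 over 18 pairs of same-numbered libraries, with 8 above 0.1. Those of libraries sharing a prefix correlated at -0.219 to 0.179 over 6 pairs, with 3 above 0.1. With 3 libraries per group, these values cannot decide whether samples were paired. The replicate block left the counts of checkpoint genes at 4 and 1 and changed the calls of all genes between tumour groups from 21 to 1. The stricter filter kept 6 of the 10 genes, and the fit of only the compared groups kept 9 under HDM and in normal tissue. With the group mean removed, an alternative chosen after seeing the data, the median r between checkpoint genes was 0.617 in place of 0.685. Depth limited Pdcd1lg2, Pdcd1, Ctla4 and Tigit in normal VEH, with 25, 20, 35 and 77 counts over 3 libraries.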

Other observations

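In normal tissue the libraries with the highest Cd274 and Havcr2 were VEH replicate 2 and HDM replicates 1 and 2, and the same 3 held Chil3, a gene of alternatively activated macrophages, at 7313, 7705 and 5271 CPM, against 95.0, 203 and 75.3 CPM in the other 3 and 11.3 to 169 CPM in tumours. Chil3 was chosen after its values were seen. The same 3 libraries were also highest in normal tissue for the 4 markers of all leukocytes, which summed to 846.6, 1125 and 675 CPM. In the other 3 these summed to 319.9, 200.3 and 291.1 CPM. Macrophage and monocyte markers summed to 9555, 12561 and 12860 CPM in the former and 2833, 6651 and 4690 CPM in the latter. The split is thus not particular to Chil3. The 3 libraries carry both treatment labels, and no test was made of the split.

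The counts in this paragraph stand beside 18.2% of all genes called higher and 20.6% lower in tumours under VEH. Under HDM these shares were 23.0% and 28.9%. Of the other marker lists, regulatory T cell markers (4 genes) had 1 gene called higher in tumours under VEH, Il2ra (2.33), and 1 called lower under HDM, Ikzf2 (-1.07). Natural killer cell markers (5 genes) had none called under VEH and 2 called lower under HDM (median -1.75). B cell markers (5 genes) had 4 called lower under each treatment (medians -1.85 and -3.60). Of 8 dendritic cell markers, Fscn1 was called higher and Zbtb46 lower under VEH (median 0.09), and 2 were called higher and 4 lower under HDM (median -1.60). Fscn1 is also made by many tumour cells. Of the 4 pan-leukocyte markers none was called in either tumour comparison (medians 0.16 and -0.42). Of 7 lung epithelial markers, 1 was called lower under VEH and 7 under HDM (medians -2.90 and -4.54), and of 4 endothelial markers all 4 were called lower under both (medians -2.49 and -3.90).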
